A study of Mus musculus with 2 samples.

Results

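The Ly49 receptors are encoded by the Klra genes, and 6 of them were described here: Klra1 (Ly49A), Klra4 (Ly49D), Klra5 (Ly49E), Klra6 (Ly49F), Klra7 (Ly49G) and Klra8 (Ly49H). They were chosen by name from the 33696 genes of the deposited tables, which hold 11 Klra genes in all. Their unique molecular identifiers (UMIs, each standing for 1 captured RNA molecule) were counted in natural killer (NK) cells, in T cell subsets and in the other cells of the mouse lung. The study asked how lung cells differ between mice with and without the transcription factor GFI1. Lungs of adult mice were dissociated, live cells were sorted, and their RNA was sequenced cell by cell with 10x Genomics 3′ chemistry. One library was labelled GFI1 KO, from a mouse without functional Gfi1 in the germline, and the other GFI1 WT, from a mouse with the gene, and per the methods all mice were kept on the C57BL6/J background. Each title names a single mouse, the library names carry "ctrl" with no treatment given, and although the methods describe duplicate samples for each genotype, the other libraries of the study were not analysed here.

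Ly49 proteins are C-type lectin-like receptors that sit in the membrane of NK cells and of some T cells and bind MHC class I molecules or related proteins. Inhibitory members such as Ly49A and Ly49G carry a motif in their cytoplasmic tail that recruits phosphatases and holds back killing of cells with normal MHC class I. Ly49D and Ly49H lack that motif, pair with the adaptor DAP12 (gene Tyrobp) and activate the cell, and Ly49H recognises a protein of mouse cytomegalovirus. Each NK cell turns on its own combination of these genes, so that a population holds cells with many different receptor sets.

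The 6 genes lie in 1 family cluster on chromosome 6, where RefSeq (GRCm38.p6) places them among the other Klra genes in the order Klra5, Klra6, Klra4, Klra8, Klra7 and Klra1. All 6 had an entry among the RefSeq windows of 300 bases that span the start of each gene. The first 5 stretches below show how alike those members are just upstream of the start. All of the stretches lie before the annotated start and are not part of the counted transcripts. Of 32851 windows, 6 held the letters ggaaatttagtt when read on the gene's own strand, and these belonged to 5 genes, all of them Klra genes. The opposite strand was not searched for these letters. The 80 bases around these letters are on the minus strand of GRCm38.p6 and are written 5′ to 3′, with capitals marking AAATCA or its reverse complement TGATTT, an extended form of the AATC core that GFI1 is known to bind. Klra1 did not hold the letters. The 80 bases shown for it were cut around its match to TGTGGT, a RUNX motif in capitals, and so hold it by construction. They end 159 bases from the annotated start and are not matched in position to the other 5 stretches.
Klra4, chr6:130067272-130067351: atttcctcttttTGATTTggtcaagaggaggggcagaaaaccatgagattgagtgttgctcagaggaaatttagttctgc
Klra8, chr6:130129900-130129979: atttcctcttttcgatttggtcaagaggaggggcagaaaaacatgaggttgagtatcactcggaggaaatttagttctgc
Klra7, chr6:130233333-130233412: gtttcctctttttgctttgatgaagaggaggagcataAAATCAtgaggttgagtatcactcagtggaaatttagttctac
Klra6, chr6:130026995-130027074: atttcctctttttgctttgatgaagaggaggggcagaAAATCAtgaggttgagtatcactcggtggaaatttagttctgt
Klra5, chr6:129913236-129913315: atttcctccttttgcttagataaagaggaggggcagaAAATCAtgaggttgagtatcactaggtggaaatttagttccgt
Klra1, chr6:130387033-130387112: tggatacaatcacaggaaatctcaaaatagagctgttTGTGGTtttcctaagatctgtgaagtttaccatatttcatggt

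The 5 related stretches were identical at 81.25% to 93.75% of positions. Klra5 and Klra6 were the most alike (93.75%), followed by Klra6 and Klra7 (92.5%), and Klra4 and Klra8, the genes of the DAP12-coupled receptors, were identical at 91.25%. Klra4 and Klra8 ended at 1 and 2 bases from the annotated start, Klra7 and Klra5 at 11 and 12, and Klra6 at 41. Over the whole 300-base windows and both strands, AATC occurred in 6 of 6 members and in 73.1% of all windows, so its presence sets these genes apart from few others. AAATCA occurred in 5 of 6 members, all but Klra1, and in 14.0% of all windows. TGTGGT occurred in Klra1 alone among the members and in 16.8% of all windows, and CTTTGA, a motif of TCF and LEF factors, occurred in Klra6 and Klra7 and in 16.003%. These matches describe letters only, and no binding of GFI1 was measured in these libraries.

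The transcripts, from which the counted reads come, are alike as well. In the longest protein-coding GENCODE transcript of each gene, Klra5 and Klra6 were identical at 90.7% of locally aligned positions. Identity was 86.3% for Klra6 and Klra8, 84.8% for Klra1 and Klra4, and 78.2% for Klra4 and Klra8. Outside the list, Klra3, Klra9 and Klra10 were identical to each other at 95.6% to 97.0%, and Klra10 to Klra8 at 91.3%. Reads from stretches shared by these genes could be credited to the wrong one or dropped, so small counts of Klra5, Klra6 and Klra10 in particular are uncertain. None of the 18 antibody tags in the tables recognises a Ly49 receptor, so that no protein level was available beside the RNA.

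In the library labelled GFI1 KO, 116825535 gene UMIs fell on 10700 cells, and in that labelled GFI1 WT 162599284 fell on 19515. The libraries shared 74 cell barcodes. After filtering, 10495 and 19342 cells remained, with medians of 11076 and 6217 UMIs per cell. With 1 library per genotype there is no spread between mice and no test was possible. Genotype, mouse and library cannot be told apart. Intervals in the text are 95% intervals that cover counting error only. The labels were not checked by the targeted gene: Gfi1 had 340 UMIs (3.60 UMIs per 1000000, CPM) in the KO-labelled library and 470 (3.47 CPM) in the other, and in NK cells 41 UMIs (39.9 CPM) and 193 (24.6 CPM), and whether the deleted part of Gfi1 can be seen by 3′ counting was not tested.

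NK cells formed 1 of 37 clusters, found with all Klra genes withheld from the clustering. They are called NK-like because 8 of 8 NK markers fixed for this purpose were raised in the cluster, and Cd3e, a subunit of the T cell receptor complex, had a UMI in 0.457% of its cells under the KO label and in 0.393% under the WT label. The cluster held 219 cells under the KO label, 2.09% of that library (1.82 to 2.38), and 2035 cells under the WT label, 10.5% (10.1 to 11.0). Ly49 RNA over the whole lung followed these numbers. Over all kept cells, the 6 genes together stood at 44.7 CPM (KO label) and 220 CPM (WT label), while within NK-like cells they stood at 3004 and 3177 CPM. The difference over the whole lung and that within NK cells were thus of very different size. The antibody tag for NK1.1, an NK cell surface protein, had medians of 73 and 28 counts per NK-like cell, and that for KLRG1, a maturation marker, medians of 42 and 19, whereas NK-like cells held medians of 4489 and 3592 UMIs. Whether these differences in depth and tag level touch the Ly49 values was not tested.

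Within the NK-like cluster, the genes for the activating receptors led in both libraries and differed little between them. Klra4 had 1457 UMIs in 122 of 219 cells under the KO label, or 1419 CPM (1347 to 1494), and 11150 UMIs in 1156 of 2035 cells under the WT label, 1421 CPM (1395 to 1448). Klra8 had 1150 UMIs in 145 cells, 1120 CPM (1056 to 1187), against 9197 UMIs in 1249 cells, 1172 CPM (1148 to 1196). The ratios of the KO to the WT label were 0.999 (0.945 to 1.05) for Klra4 and 0.956 (0.898 to 1.02) for Klra8. In this cluster neither left 1 beyond counting error. Chosen cell by cell by their own UMIs, NK cells gave log2 ratios of -0.479 (-0.552 to -0.407) and -0.482 (-0.563 to -0.401). Each library clustered alone gave -0.320 (-0.398 to -0.243) and -0.300 (-0.385 to -0.215). The UMIs of all genes as total gave -0.095 (-0.175 to -0.016) and -0.159 (-0.248 to -0.070). These intervals lie below 0. Klra4 was seen in fewer cells than Klra8 but with more UMIs in each, 11.9 and 9.65 per cell with a UMI for Klra4 against 7.93 and 7.36 for Klra8. Levels are UMIs counted at the 3′ end of transcripts and are therefore not divided by gene length.

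Klra7, the gene of the inhibitory receptor Ly49G, was the third in both libraries. It had 377 UMIs in 80 cells under the KO label, 367 CPM (331 to 406), and 3331 UMIs in 820 cells under the WT label, 425 CPM (410 to 439). The ratio was 0.865 (0.776 to 0.963). After each cell was thinned at random to 1500 UMIs, so that deep and shallow cells could be compared, Klra7 was seen in 27.5% and 31.2% of cells, a difference of -3.76 percentage points (-10.0 to 3.10) whose interval includes 0. UMIs of these genes come in several per cell, and the interval of a level treats them as independent, so the interval of a level is narrower than that of the share of cells.

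Klra1 was the member that differed most downward. This gene of the inhibitory receptor Ly49A had 34 UMIs in 9 of 219 cells under the KO label, 33.1 CPM (22.9 to 46.3), and 1014 UMIs in 300 of 2035 cells under the WT label, 129 CPM (121 to 137). The level was 3.90-fold higher under the WT label, and the ratio of the KO to the WT label was 0.256 (0.176 to 0.360). Thinned shares were 2.84% and 10.3%, a difference of -7.50 points (-9.80 to -4.01). Level and share thus differed in the same direction beyond counting error. Without thinning, the shares were 4.11% and 14.7%.

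Klra5 was the member that differed most upward by level, on few cells. It had 57 UMIs in 10 cells under the KO label, 55.5 CPM (42.1 to 71.9), and 131 UMIs in 38 cells under the WT label, 16.7 CPM (14.0 to 19.8), a ratio of 3.33 (2.39 to 4.57), or 1.73 on the log2 scale. With NK cells chosen cell by cell, by their own UMIs and not by cluster, the log2 ratio was 0.87 (0.41 to 1.32). Its thinned shares were 3.32% and 1.36%, and their difference of 1.95 points (-0.112 to 5.38) includes 0. Klra6, the gene of Ly49F, was rare in both libraries, with 9 UMIs in 8 cells (8.77 CPM, 4.01 to 16.6) against 99 UMIs in 71 cells (12.6 CPM, 10.3 to 15.4). Its ratio of 0.695 (0.309 to 1.37) includes 1.

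The order of levels was Klra4, Klra8, Klra7, Klra1, Klra5 and Klra6 under the WT label. The intervals of neighbours lay apart, except those of Klra5 and Klra6, which overlapped. Under the KO label Klra5 stood above Klra1, but their intervals overlapped too. Overlap of intervals does not show that the levels were the same. Klra4 and Klra8 together took most of the Ly49 RNA of the NK-like cells in each library.

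**Figure D1:**
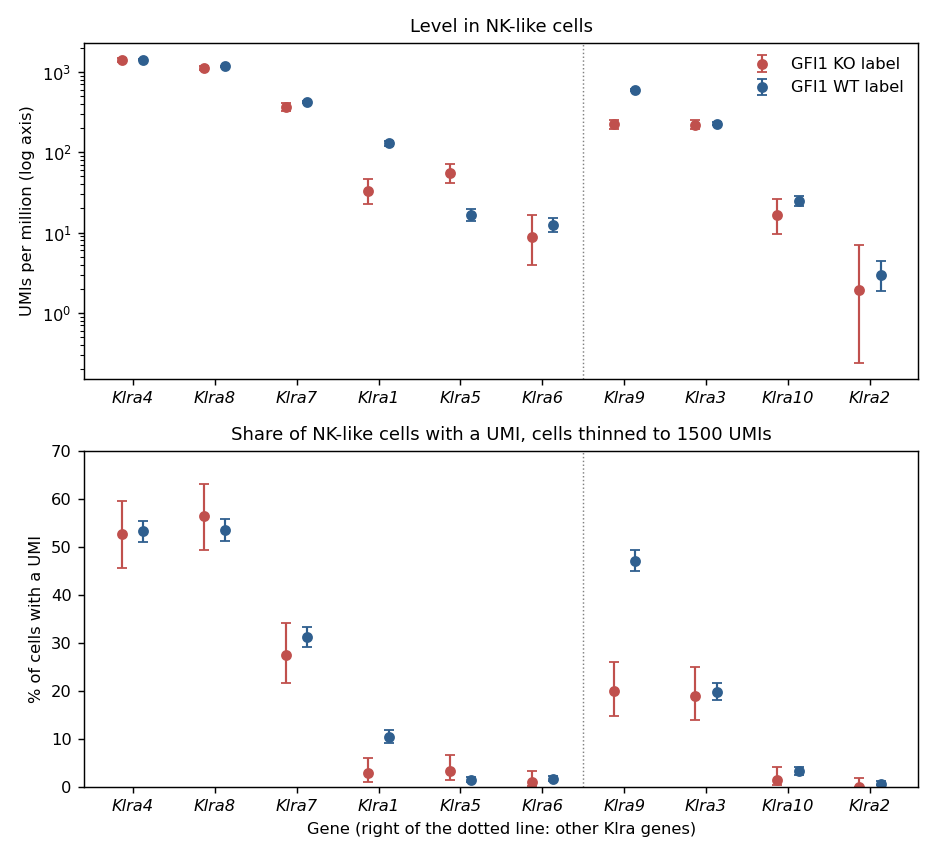
Level (top, CPM on a log axis) and share of cells with a UMI after thinning to 1500 UMIs (bottom, %) of each Klra gene in NK-like cells of the library labelled GFI1 KO (red) and GFI1 WT (blue), with 95% Poisson and Clopper-Pearson intervals. Klra4, Klra8 and Klra7 lie side by side in both libraries, whereas Klra1 (2.84% against 10.3% of thinned cells) and, outside the list, Klra9 (19.9% against 47.1%) lie lower under the KO label.

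Across all 9891 genes with at least 30 UMIs in NK-like cells over both libraries, 12.2% were at least 1.5-fold higher under the KO label and 18.1% at least 1.5-fold lower. Among the 6 members, all of which passed the 30-UMI limit, 1 was past the fold upward (Klra5) and 1 downward (Klra1), which is close to these shares. Of all 11 Klra genes, 9 passed the limit, with 1 past the fold upward and 2 downward. The second downward gene was Klra9, the gene of the inhibitory receptor Ly49I. It stood at 223 CPM (KO label) and 598 CPM (WT label), a ratio of 0.373 (0.325 to 0.426), and its thinned shares were 19.9% and 47.1%, which differ by -27.2 points (-32.9 to -20.8). Klra3, the gene of Ly49C and almost identical in sequence to Klra9, had 220 CPM and 228 CPM and a ratio of 0.967 (0.838 to 1.11). Klra10 stood at 16.6 and 24.7 CPM.

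The remaining family members marked other cells. Klra2 had 2 UMIs in NK-like cells under the KO label and 23 under the WT label, but stood at 432 and 595 CPM in monocyte-like cells and at 228 and 205 CPM in alveolar macrophage-like cells. Klra17 was absent from NK-like cells under the KO label, where a count of 0 allows up to 2.92 CPM, and had 4 UMIs there under the WT label, but stood at 59.9 and 79.0 CPM in dendritic-like cells.

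In the NK-like cluster, the 6 genes as a sum differed little. The summed level in NK-like cells had a ratio of 0.946 (0.911 to 0.982), and 82.5% of thinned cells under the KO label and 82.8% under the WT label had a UMI of at least 1 of the 6 genes, a difference of -0.372 points (-6.41 to 4.80). Without thinning the shares were 87.7% and 86.8%. NK cells were also chosen cell by cell, by a UMI of Ncr1 or Klrb1c (the genes of NKp46 and NK1.1) and none of Cd3d, Cd3e or Cd3g. The difference in the share was then -12.0 points (-17.9 to -6.30). The log2 ratio of the sum was -0.496 (-0.545 to -0.447), and with each library clustered alone it was -0.344 (-0.397 to -0.293). The result for the sum thus depended on how NK cells were chosen. As a background, B-like cells, which should lack these genes, had a UMI of any of the 6 in 0.329% and 0.586% of thinned cells, at medians of 2967 and 3306 UMIs. Endothelial-like cells had one in 0 of 99 thinned cells (KO label; Clopper-Pearson upper limit 3.66%) and in 0.602% (WT label).

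NK cells mature in the tissue, and Ly49 receptors are known to be acquired as they do. NK-like cells were therefore split by which of 2 marker lists had more UMIs in a cell. The immature list included Cd27, Kit and Il7r, and the mature one Itgam, Cx3cr1, S1pr5, Zeb2, Gzma and Gzmb. UMIs were summed without weights, and Gzma alone stood at 9463 CPM (KO label) and 10208 CPM (WT label) in NK-like cells. Zeb2 stood at 484 and 1004 CPM. The split thus leans on Gzma, and whether it follows maturation was not tested. The mature list led in 197 of 219 cells under the KO label and in 1903 of 2035 under the WT label, and the immature list in 21 and 128. In mature-type cells the summed level was 3113 CPM (KO label) and 3273 CPM (WT label). In immature-type cells it was 2367 and 1998 CPM. A UMI of any member was seen in 84.3% and 84.5% of thinned mature-type cells, and in 68.4% and 58.9% of thinned immature-type cells, so that immature-type cells stood lower in both libraries.

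The lower Klra1 of the library labelled GFI1 KO was found in mature-type cells. There Klra1 stood at 20.96 CPM (19 UMIs in 7 cells) against 133 CPM (961 UMIs in 284 cells), a ratio of 0.158 (0.0944 to 0.247), and thinned shares were 2.09% and 10.6%. In immature-type cells, 15 UMIs in 2 cells gave 136 CPM against 87.5 CPM from 53 UMIs in 16 cells, and the ratio of 1.55 (0.811 to 2.79) includes 1. With 2 cells on 1 side, the immature-type cells do not settle a direction. Klra5 in mature-type cells stood at 56.3 and 18.0 CPM, and Klra8 in immature-type cells at 922 and 580 CPM, a ratio of 1.59 (1.26 to 1.99), while its thinned shares of 52.6% and 32.3% differed by 20.4 points with an interval that includes 0 (-5.03 to 44.7).

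Cells mostly carried RNA of 1 or 2 members. After thinning, a mean of 1.44 of the 6 genes was detected per NK-like cell under the KO label and 1.51 under the WT label. No member was detected in 17.5% and 17.2% of cells, exactly 1 in 31.8% of cells in each library, and 2 in 41.2% and 35.0%. At least 3 members were detected in 9.48% of cells under the KO label and in 16.1% under the WT label, and without thinning in 17.4% and 25.995%. The distributions were thus alike up to 1 gene per cell and differed in the cells with 3 or more. A UMI of an activating receptor gene, Klra4 or Klra8, was found in 77.3% and 74.7% of thinned cells. Cells with 1 of these and neither Klra1 nor Klra7 made up 52.6% under the KO label and 44.5% under the WT label. With Klra3, Klra9 and Klra10 added, cells with none of the 9 genes fell to 11.4% under the KO label and 7.47% under the WT label, and the means rose to 1.84 and 2.22 genes.

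**Figure D2:**
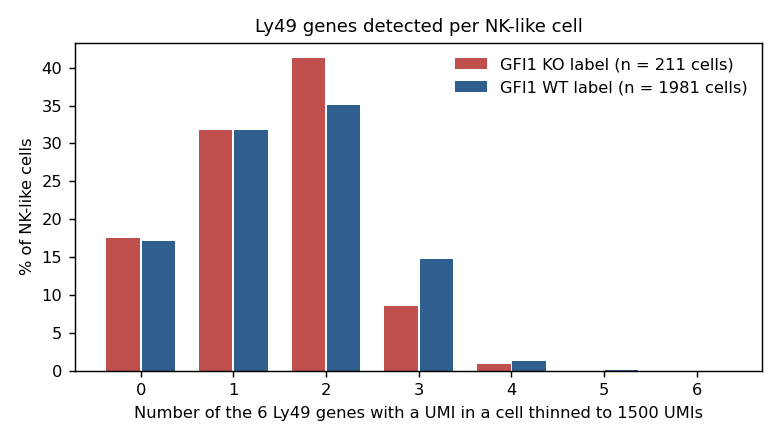
Share of NK-like cells (%) by the number of the 6 Ly49 genes with a UMI after thinning each cell to 1500 UMIs, in the library labelled GFI1 KO (red, 211 cells) and GFI1 WT (blue, 1981 cells). Cells without any of the genes and with 1 of them are equally common, and cells with 3 of them make up 8.53% under the KO label and 14.7% under the WT label.

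Some members were found in the same cell more often, and others less often, than their single shares would give. For each pair of members an odds ratio was taken over thinned NK-like cells, in which 1 means that having the first gene says nothing about having the second. Under the WT label, 10 of 15 pairs had an odds ratio above 1, with a median of 1.18 and a highest value of 1.80, for Klra4 with Klra8. Under the KO label, 6 of 15 pairs were above 1. In 2 of these, Klra6 with Klra4 and with Klra7, the ratio was infinite, since both of the 2 cells with Klra6 also had the other gene. The other 13 ran from 0 to 2.08, the latter for Klra7 with Klra8. Pairs of the rare Klra1, Klra5 and Klra6 rest on 0 to 3 shared cells each. The activating pair Klra4 and Klra8 was found together in 67 of 211 cells (31.8%, odds ratio 1.41) under the KO label and in 636 of 1981 cells (32.1%, odds ratio 1.80) under the WT label, the most common pair in each.

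The odds ratios of some other pairs lay further apart, a difference that was not tested. Klra7 and Klra8 were found together in 19.0% and 17.1% of cells, with odds ratios of 2.08 and 1.07. Klra4 and Klra7 were together in 24 cells (11.4%) and 349 cells (17.6%), with odds ratios of 0.535 and 1.201. Klra1 and Klra4 were together in 3 cells and 134 cells, with odds ratios of 0.898 and 1.75. Without thinning they were together in 7 and 212 cells, with odds ratios of 2.89 and 2.02. The order of the libraries thus turned, and no direction is read for this pair. The nearly identical Klra5 and Klra6 were too rare for their pairing to be read, with 7 and 2 thinned cells under the KO label and 27 and 33 under the WT label, none of them shared, and 1 shared cell without thinning (WT label). Pairs share cells and sequence and carry no p-value, and reads shared between alike genes can raise or lower a pair's count.

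Other genes of the pathway were taken from 4 lists, and each gene's level in NK-like cells was compared. Of 7 adaptors and phosphatases, none passed the 1.5-fold limit: Tyrobp, the adaptor that Ly49D and Ly49H need, stood at 2983 CPM (KO label) and 2574 CPM (WT label), a ratio of 1.16 (1.12 to 1.204), and the phosphatase gene Ptpn6 had a ratio of 1.44. The phosphatase gene Inpp5d and the kinase gene Syk had ratios of 0.678 and 0.705. Of 3 genes of the ligands, none passed it, with ratios of 1.32 for H2-D1, 1.27 for H2-K1 and 1.11 for B2m. Over all genes in NK-like cells, 12.2% were past the fold upward and 18.1% downward. With lists of 7 and 3 genes, nothing is read from these counts.

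Of 14 other NK receptor genes, 1 was past the fold upward and 4 were past it downward, beside 12.2% and 18.1% of all genes. Lists this short do not set these genes or the regulators below apart from all genes. Klrc1, the gene of the inhibitory receptor NKG2A, had a ratio of 1.71 (1.53 to 1.90). Klri1 stood at 0.389, Klrb1b at 0.538, Klrb1a at 0.601 and Cd244a, named because only 5 genes passed, at 0.650. Of 12 regulator genes, 11 passed the 30-UMI limit, 1 was past the fold upward (Gfi1 itself, 1.62) and 3 downward. The latter were the genes of the maturation factors Zeb2 (0.482), Tbx21 (0.514) and Prdm1 (0.572). Tcf7, whose product is known to act in Ly49 gene choice, had a ratio of 1.46 (1.16 to 1.83), and Runx3 0.747. The median of all genes stood at -0.06 on the log2 scale.

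The genes whose level followed that of the summed members most closely over 35 clusters were NK genes. Among 13541 genes, the highest Pearson correlations of log2 levels were those of Gzma (0.983), a granzyme, and the receptor genes Klrb1c (0.982) and Klre1 (0.979). ENSMUSG00000121360 (0.968), Gzmb (0.961), Tbx21 (0.955), Klri2 (0.953), Adamts14 (0.942), Eomes (0.937) and Klra9 (0.936) followed. Over the 27 clusters without many doublets these correlations ranged from 0.904 to 0.983. Clusters come from the same 2 libraries and differ in depth, so these values are descriptions.

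Outside NK-like cells, T cells formed 7 clusters by the share of their cells with a Cd3e UMI. In 4 of these clusters, 63.9% to 100% of cells were called doublets by Scrublet, a program that scores barcodes that look like 2 cells, against at most 1.27% in the other 3. The doublet-rich clusters carried the summed members at 286 CPM (KO label) and 447 CPM (WT label). Values for T cells are therefore given for the 3 other clusters, a choice made after seeing the data, with the values of all 7 beside them for CD8 and Trdc-positive cells. CD8 T cells had a Cd8a or Cd8b1 UMI and none of Cd4 or Trdc, Trdc-positive T cells (Trdc is the constant gene of the delta chain of the γδ T cell receptor) had a Trdc UMI and none of the others, and T cells that met no such rule are called other T cells.

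**Figure D3:**
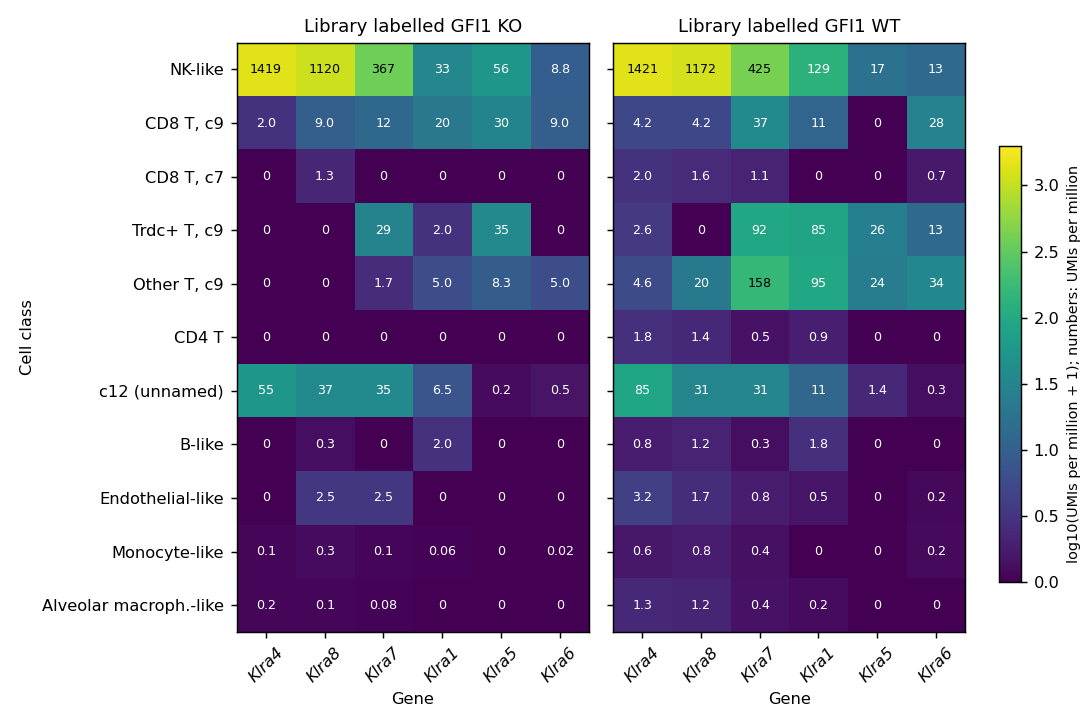
Level of each Ly49 gene (CPM, printed in each cell and coloured by log10 of CPM + 1) in 11 cell classes of the library labelled GFI1 KO (left) and GFI1 WT (right). Of the classes plotted, NK-like cells hold the highest level of Klra4, Klra8, Klra7 and Klra1 in each library, and in other T cells of cluster c9 Klra7 and Klra1 stand at 158 and 95.3 CPM (WT label) against 1.66 and 4.97 CPM (KO label).

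CD8 T cells carried little Ly49 RNA, and its level depended on the cluster. In 371 cells under the KO label and 1150 under the WT label, the summed level was 46.3 CPM (83 UMIs in 16 cells) against 16.6 CPM (86 UMIs in 35 cells), a ratio of 2.80 (2.05 to 3.83). Thinned shares were 2.17% and 1.66%, a difference of 0.512 points (-1.02 to 2.67), which includes 0. Over all 7 clusters the summed levels were 36.8 and 49.8 CPM, with the direction turned. The makeup of the class differed as well: cluster c9 held 53.4% of CD8 T cells under the KO label and 13.7% under the WT label, and cluster c7, whose leading genes were Cd8b1, Dapl1 and Cd8a, held 45.6% and 85.3%.

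Within those clusters the difference in the sum was not seen. In c9, 82.1 CPM under the KO label stood against 84.5 CPM under the WT label, a ratio of 0.971 (0.688 to 1.38), with a UMI in 15 of 198 and 17 of 158 cells. In c7, 1 UMI among 169 cells stood against 24 UMIs among 981 cells, or 1.29 and 5.42 CPM. CD8 T cells of c7 thus lay near the level of B-like cells (2.30 and 4.13 CPM) in both libraries.

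Single members in CD8 T cells rested on few cells. Klra5 had 30 UMIs in 5 cells under the KO label and 0 UMIs among 1150 cells under the WT label, at least 29.0-fold higher when the WT label is set at 3 counts over the class. Within c9 the same counts fell on 198 and 158 cells, at least 7.22-fold higher, and the difference in thinned share was 2.53 points (-0.353 to 5.79). Klra1 had 20 UMIs, all in 1 cell, under the KO label against 8 UMIs in 3 cells, a ratio of 7.25 (3.06 to 19.0) that rests on that cell. Klra6 and Klra7 in c9 went the other way, with 9 and 12 UMIs under the KO label against 20 and 27, ratios of 0.325 (0.130 to 0.747) and 0.321 (0.148 to 0.655). Of the 9521 genes with at least 30 UMIs in CD8 T cells, 9.54% were at least 1.5-fold higher under the KO label and 11.1% lower. Of the 3 members that reached that limit, 1 was past the fold upward, Klra5, with all of its 30 UMIs under the KO label. The limit thus fixed its direction, and nothing is read from the count. Over all 7 clusters, Klra4 had 2 UMIs against 108 and Klra8 10 against 111.

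CD8 T cells were also split by marker lists into naive-type and memory-type cells, and the latter by a granzyme UMI. Naive-type cells made up 217 of 371 cells under the KO label and 1012 of 1150 under the WT label, at 38.6 and 10.0 CPM of the summed members in 4 of 217 and 24 of 1012 cells. Of the 42 UMIs under the KO label, 20 were the Klra1 UMIs of 1 cell, and the thinned share differed by -0.361 points (-1.58 to 2.09). Memory-type cells without a granzyme UMI had the highest share of the 3 subsets. There, 6 of 65 cells under the KO label (83.8 CPM) and 9 of 46 under the WT label (182 CPM) had a UMI of a member, with Klra5 leading under the KO label (20 UMIs in 4 cells) and Klra6 (14 UMIs in 7 cells) and Klra7 (18 UMIs in 6 cells) under the WT label. Memory-type cells with a granzyme UMI had 15 UMIs in 6 of 86 cells against 1 UMI in 1 of 91.

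Trdc-positive T cells carried less Ly49 RNA under the KO label. Trdc RNA is no mark of T cells by itself, as 14.2% and 17.1% of NK-like cells had a Trdc UMI. The 87 cells under the KO label carried 32 Ly49 UMIs in 7 cells (65.0 CPM) and the 90 under the WT label 85 in 12 cells (199 CPM), a ratio of 0.326 (0.210 to 0.495). Shares were 8.05% and 13.3% without thinning and 2.33% and 8.99% with it, a difference of -6.66 points (-14.9 to 1.03) that includes 0. Over all 7 clusters the levels were 229 and 561 CPM, with the shares 12.8% and 29.8%. Nearly all of these cells lay in c9, 98.9% under the KO label and 88.9% under the WT label, and within c9 the ratio was 0.299 (0.193 to 0.454). Of 5577 genes that passed the limit in this class, 23.7% were at least 1.5-fold higher under the KO label and 21.8% lower. The 2 members that reached the limit, Klra1 and Klra7, were both lower, but they reached it mainly through the WT-labelled library, and nothing is read from that count.

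In the 3 clusters, the members that led in NK cells were nearly absent from Trdc-positive cells. Klra8 had 0 UMIs in both libraries, which allows up to 6.09 CPM (KO label) and 7.02 CPM (WT label), and Klra4 had 0 and 1. Over all 7 clusters, which include the doublet-rich ones, Klra4 stood at 71.8 and 240 CPM and Klra8 at 85.1 and 110 CPM, so that these genes led under the KO label and Klra4 led under the WT label. Klra5 had 17 UMIs in 5 cells under the KO label and 10 UMIs in 1 cell under the WT label. Klra7 had 14 UMIs, all in 1 cell, against 36 UMIs in 7 cells, 28.4 and 84.3 CPM. Klra1 had 1 UMI against 33 UMIs in 4 cells, 2.03 and 77.3 CPM, a ratio of 0.0263 (0.000646 to 0.157). Klra6 had 0 and 5 UMIs. Klra2, outside the list, had 17 UMIs in 6 cells under the KO label and 0 under the WT label.

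The largest difference between the libraries was in other T cells. These were 207 cells under the KO label and 649 under the WT label, and the summed level was 14.9 CPM (12 UMIs in 5 cells) against 147 CPM (375 UMIs in 63 cells), a ratio of 0.101 (0.0519 to 0.179). Thinned shares were 0.521% and 7.75%, a difference of -7.23 points (-9.68 to -4.16). The thinned share under the KO label rests on 1 of 192 cells and lay near that of B-like cells. The level of 14.9 CPM under the KO label lay above that of B-like cells given earlier. Cluster c9 held 72.0% and 37.9% of these cells, and within it the ratio was 0.0591 (0.0302 to 0.104), with thinned shares of 0.741% and 19.0%.

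Klra7 and Klra1 carried most of that difference. In other T cells of c9, Klra7 had 1 UMI among 149 cells under the KO label and 171 UMIs in 37 of 246 cells under the WT label, 1.66 and 158 CPM, a ratio of 0.0105 (0.000264 to 0.0592). Thinned shares were 0% and 12.6%. Klra1 had 3 UMIs in 1 cell against 103 UMIs in 30 cells, 4.97 and 95.3 CPM, and Klra6 had 3 UMIs in 3 cells against 37 UMIs in 17 cells. Klra8 had 0 and 22 UMIs, the latter in 3 cells. Klra5 had 5 UMIs in 2 cells and 26 UMIs in 5 cells. In the 3 clusters, Klra1 and Klra7 were found together in 9 thinned cells under the WT label, out of 18 cells with Klra1 and 31 with Klra7. Of 8579 genes that passed the limit in other T cells, 15.2% were at least 1.5-fold higher under the KO label and 14.4% lower. The 4 members that reached the limit were lower, but they did so almost wholly through the WT-labelled library, and nothing is read from that count. The ratio of Klra5 in the 3 clusters, 0.609 (0.183 to 1.61), includes 1.

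Some NK markers moved with this result and others did not. In other T cells of c9, all 8 NK markers were above 0 in both libraries and their summed level was 907 CPM (KO label) and 1002 CPM (WT label), against 17455 and 18085 CPM in NK-like cells. Lower under the KO label were Ncr1 (3.31 and 20.3 CPM), Klrb1c (21.5 and 86.9), Klre1 (49.7 and 137), Klri2 (1.66 and 16.6) and Gzma (84.5 and 164). Prf1 (56.3 and 36.1 CPM) and Nkg7 (643 and 496) were higher, and Eomes stood at 46.4 and 45.3 CPM. All 5 and all 55 cells with a Ly49 UMI also had a UMI of Cd3d, Cd3e or Cd3g, 3 and 28 of them had one of Ncr1 or Klrb1c, and 0 and 2 were called doublets. Without the cells that had an Ncr1 or Klrb1c UMI, the summed level was 3.62 CPM (2 UMIs) in 141 cells and 175 CPM (152 UMIs) in 201 cells, a ratio of 0.0207 (0.00248 to 0.0760). The difference was as large without those cells.

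**Figure D4:**
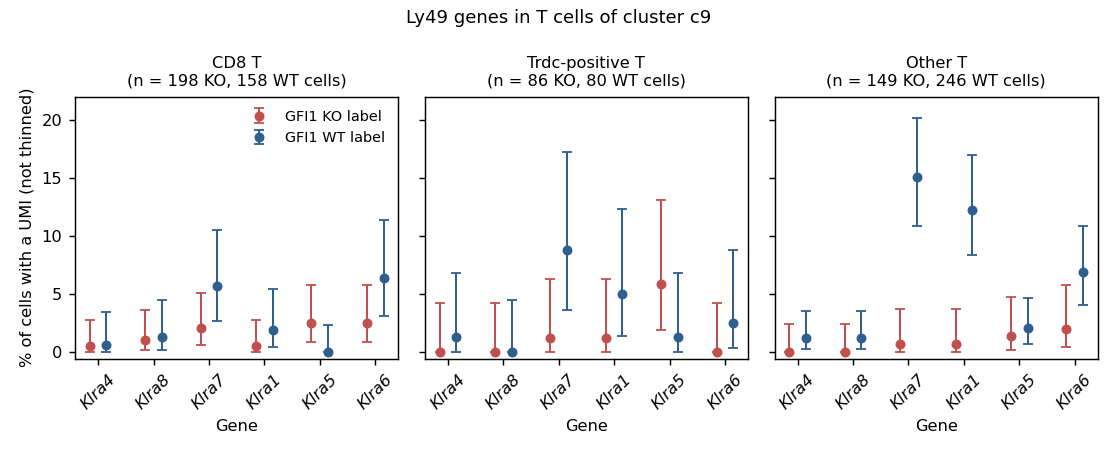
Share of cells with a UMI of each Ly49 gene (%, not thinned, with 95% Clopper-Pearson intervals) in CD8, Trdc-positive and other T cells of cluster c9, in the library labelled GFI1 KO (red) and GFI1 WT (blue). Among the single genes plotted, the intervals of the libraries part only for Klra7 and Klra1 of other T cells, at 0.671% against 15.04% and 0.671% against 12.2%.

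Among the leading genes of cluster c9 were Scart1, Trgc1, Cxcr6 and Trdc. Of these genes, Cxcr6 is on the marker list of group 2 innate lymphoid cells and none is on the T cell list, but 83.8% of its cells had a Cd3e UMI. Over the whole cluster, without any split, the summed level was 52.8 CPM in 499 cells under the KO label and 184 CPM in 604 cells under the WT label, a ratio of 0.286 (0.234 to 0.349). CD4 T cells held 0 Ly49 UMIs among 100 cells under the KO label and 10 UMIs in 9 of 516 cells under the WT label, 4.56 CPM, near the level of B-like cells.

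Of all UMIs of a gene, NK-like cells held most for Klra4 and Klra8 in both libraries, 79.5% and 85.0% for Klra4 and 76.9% and 87.2% for Klra8. For Klra7 they held 59.4% and 78.0%, for Klra1 30.9% and 71.3%, for Klra5 44.9% and 51.4%, and for Klra6 33.3% and 50.8%. Klra5 and Klra6 were thus the members with the largest part of their RNA outside NK-like cells under the WT label. In B-like cells, neither gene had a UMI among 947 and 3117 cells.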

How the data were processed

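The authors deposited raw UMI counts per gene, antibody tag and called cell for each library. The submitters' processing notes name Cell Ranger 9.0.1 and the builds GRCm39 and mm39, so no GRCm38.p6 coordinate was set against the files. The Klra genes, marker lists and subset lists were chosen with earlier results of these data known. Kept cells had at least 500 UMIs, at least 200 genes and at most 20% mitochondrial UMIs, and 9548 ribosomal, mitochondrial and Gm- genes were left out of every level, so that levels are UMIs per 1000000 UMIs of the other 24148 genes (CPM). Each cell was scaled to 10000 UMIs, and log values were clustered on 2000 variable genes without Klra genes, with 50 components, 15 neighbours and Leiden resolution 0.8, without batch correction (Python 3.11.15, scanpy 1.11.5, numpy 2.4.6, scipy 1.17.1, leidenalg 0.10.2, R 4.3.3). Clusters were named from at least 3 markers raised 1.5-fold and seen in 5% of cells. T cell clusters had a Cd3e UMI in at least 30% of cells. Scrublet called 359 cells (3.42%) under the KO label and 1137 (5.88%) under the WT label, which were kept. Whether doublets or free RNA were removed before deposit is not given in the sources used here.

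No test was run, since each genotype had 1 library. Levels have exact Poisson intervals, ratios exact conditional binomial ones, shares Clopper-Pearson ones and differences of shares square-and-add ones. A count of 0 was given the limit that 3 counts allow. For shares, each cell was thinned once to 1500 UMIs, and 8 and 54 shallower NK-like cells were left out. Named genes were the 6 members, all other Klra genes, up to 4 genes per pathway list with the largest folds among those with at least 30 UMIs (Tyrobp, Cd244a, Tcf7 and Runx3 were added after their values were seen), and the 10 genes most like the summed members over clusters of at least 50 cells. Subsets within c9, and c9 itself, were chosen after their values were seen. Alternatives covered the cell classes, clustering, doublets, filters, totals and thinning. The scripts were tested on simulated data. Some planned T cell subsets are not reported here.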

Additional observations from a re-analysis of the deposited data

Results flagged for a closer look

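For some genes the libraries differed in opposite directions in different cell classes beyond counting error. These contrasts rest on 1 library per label and were not tested. Klra1 had a ratio of the KO to the WT label of 0.256 in NK-like cells and of 7.25 in CD8 T cells of the 3 clusters without many doublets, and 0.0263 in Trdc-positive T cells of these clusters. The 20 Klra1 UMIs of CD8 T cells under the KO label lay in 1 cell, and within cluster c9 the CD8 ratio was 1.81 (0.762 to 4.74). Klra3 had ratios of 3.73 in CD8 T cells and 0.193 in Trdc-positive T cells, from 18 and 14 UMIs in the former and 2 and 9 UMIs in the latter, and within c9 the CD8 ratio was 1.08 (0.455 to 2.70).

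Ly49 RNA was also seen above the level of B-like cells in clusters that none of the comparisons uses. Cluster c12, unnamed and led by genes of dividing cells such as Top2a and Ccna2, held Klra4 at 73.6 CPM in 41 cells, Klra7 at 32.9 CPM in 36 cells and Klra8 at 33.3 CPM in 35 cells over both libraries, and 5.55% of its cells were called doublets. Cluster c33, fibroblast and mural-like, held Klra1 at 20.9 CPM, Klra4 at 41.7 CPM, Klra5 at 68.5 CPM and Klra8 at 26.8 CPM, in 1, 2, 1 and 1 cells.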

How the results depend on the processing

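Values are log2 ratios of the KO to the WT label, or differences in percentage points or in genes per cell. No paired analysis was possible because the labels share only the number 1. Leaving out a library was not possible with 1 per label. In NK-like cells the main values were -0.08 for the sum, -0.372 points for the share and -0.078 genes per cell. Classes built from UMIs of single cells gave -0.50, -12.0 points and -0.276 genes, each library clustered alone -0.34 for the sum, and the UMIs of all genes as total -0.17. Klra1 kept its direction in 10 of 10 alternatives (-2.07 to -1.86), as did Klra5 (0.87 to 1.83), while Klra4 kept its sign in 7 of 10 (-0.48 to 0.08). Klra8 stayed below 0 in 10 of 10 (-0.48 to -0.02). Some alternatives hardly changed the NK-like cells and nearly repeat the main value. Resolution 0.5 held 219 and 2035 cells, as the main setting did, and resolution 1.2 held 219 and 2034. With Klra genes among the variable genes there were 218 and 2036. In CD8 T cells the main value of the sum was -0.44 and that of the share -0.352 points. Without Scrublet doublets the sum was 1.03 and Klra8 0.35, both reversed. In the 3 clusters without many doublets, added after seeing the data, the sum was 1.49, Klra7 0.12 and Klra8 1.54, all reversed, and in c9 alone, also added, the sum was -0.043, Klra8 1.12 (reversed) and the share -3.60 points. In Trdc-positive T cells the sum stayed below 0 in 12 of 12 alternatives. It was -1.29, -3.08 by single-cell UMIs, -3.14 with each library alone, -2.92 at resolution 0.5, -1.92 without Scrublet doublets, -1.70 as a mean over cells, -1.62 in the 3 clusters and -1.74 in c9, and the share of -17.4 points became -6.66 points in the 3 clusters. Cause was not tested except where fewer clusters or cells enter by construction. Depth limits the rare members, as Klra6 had 9 UMIs in NK-like cells under the KO label.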
